A study of Danio rerio with 30 samples.

Results

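Whole zebrafish larvae exposed to propylparaben (PrP) were compared with larvae exposed to ethylparaben (EtP), both at the exposure labelled BMD5/50. The comparison used 6 of the 30 libraries of the series, namely the 3 of PrP and the 3 of EtP that carry this label. RNA-seq was made from total RNA of whole bodies of the AB wild type at 120 hours post fertilization (hpf). The series holds 10 groups of 3 libraries, an untreated Control and methylparaben, EtP and PrP at the labels BMD5, BMD5/10 and BMD5/50. The labels write the lower exposures as BMD5 divided by 10 or by 50. The sources used here do not state the concentrations behind them, so the compounds share a label and not necessarily a concentration. The labels do not tell whether replicates came from separate clutches. The p-values then reflect only the spread between libraries within groups, estimated over all 10 groups, and part of it may be technical. The labels name no transgene or sort, and a change in the number of cells of a type cannot be told apart from a change in RNA per cell in whole bodies.

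Parabens are esters of p-hydroxybenzoic acid used as preservatives, and EtP and PrP differ only in the alcohol part of the ester, an ethyl or a propyl chain. The longer chain makes PrP the more lipophilic of the pair. In animals carboxylesterases cleave parabens to p-hydroxybenzoic acid, and the acid or the intact ester is then coupled to sulfate, glucuronic acid or glycine, largely in liver and intestine. Parabens are also studied as weak estrogen receptor agonists, mostly in mammalian cells. At 120 hpf the zebrafish larva has a working retina and lens, begins to feed, has started to myelinate its axons, and uses up its yolk while liver, pancreas and gut grow.

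Total counts were 10959701, 10978391 and 15420040 for PrP replicates 1 to 3 and 10385053, 17457799 and 24468093 for EtP. The first principal component of log2 CPM (counts scaled to library size), which held 40.8% of the variance, placed EtP replicates at -49.9, 41.5 and 51.8 and PrP replicates at -65.9, 43.4 and 4.40. Replicate 1 of both compounds therefore lay far from replicate 2, and PrP replicate 3 lay between them, away from EtP replicate 3. The split was series-wide, since the libraries numbered 1 lay between -76.1 and -23.8 in all 10 groups and those numbered 2 and 3 at -4.14 or above. Mitochondrially encoded genes took 9.12%, 4.93% and 5.33% of the counts in PrP and 6.35%, 5.05% and 5.29% in EtP, PrP replicate 1 being the highest. All tissue markers found in the table, except 2 of ovary or yolk, had enough reads to be tested.

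No gene passed the test between PrP and EtP at BMD5/50. By edgeR's quasi-likelihood test, 0 of 18543 genes (0.0%) had a Benjamini-Hochberg adjusted p under 0.05, and the smallest adjusted p was 0.674. An unadjusted p under 0.05 was reached by 644 genes (3.47%), of which 290 (1.56%) were higher and 354 (1.91%) lower in PrP, against 927 that a uniform distribution of p would give. With the replicate number as a block 1522 of the 18543 genes had one, above the 927, and 0 passed. DESeq2 also called 0 genes, and 713 of 26679 had an unadjusted p under 0.05 there. A test of 26501 single transcripts called 0. The transcript nearest to the threshold belonged to elmo1, which in mammals helps to activate Rac in engulfment and migration, with a log2 fold change of -0.69 and an adjusted p of 0.0732. A p that misses the threshold does not show that the compounds act alike. Gene by gene, the 95% interval in the fit without a block had a median half-width of 0.52 on the log2 scale. For 65.0% of the genes it lay within 1 log2 unit of 0. This was the only pair of compounds compared at this label here.

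The differences also varied with the replicate number. Within replicate number 1 the log2 difference of PrP minus EtP had a standard deviation over genes of 0.656, and 2065 genes differed by over 1 log2 unit. For number 2 these values were 0.444 and 781 genes, and for number 3 they were 0.635 and 1713 genes. Across the 18543 genes the difference in number 1 had a Pearson's r of -0.22 with that in number 2 and of 0.17 with that in number 3, and numbers 2 and 3 had an r of -0.079. These are descriptions across genes, which are not independent replicates, and each number shares no library with the others. All 3 numbers had PrP higher for 2138 genes (11.5%) and PrP lower for 2348 genes (12.7%). The 3 PrP libraries lay wholly above the 3 EtP libraries for 384 genes (2.07%) and wholly below them for 613 (3.31%).

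None of the 10 genes lower in PrP with the smallest unadjusted p passed the adjusted test. The gene fnbp1l, whose mammalian product links Cdc42 to actin at curved membranes, had 11.2, 14.1 and 12.2 CPM in PrP replicates 1 to 3 and 20.5, 21.04 and 16.4 CPM in EtP. Its log2 fold change was -0.63 ± 0.13 (SE; 95% interval -0.90 to -0.36). For klhl14, which encodes a kelch-type protein that binds torsin in mammals, the PrP libraries had 5.15, 5.91 and 4.74 CPM and the EtP libraries 8.87, 8.93 and 9.42 CPM. The groups did not overlap in either gene, and klhl14 lay at 6.38, 8.098 and 6.59 CPM in Control, between them. The log2 fold change of klhl14 was -0.79 ± 0.16 (SE; 95% interval -1.12 to -0.45), with a range of -0.86 to -0.71 when 1 library was left out at a time. Both genes had an adjusted p of 0.674 by edgeR.

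The retromer subunit gene vps26b, which serves the retrieval of cargo from endosomes, had 6.503, 7.505 and 6.33 CPM in PrP and 11.7, 9.69 and 11.9 CPM in EtP, again without overlap. Its log2 fold change was -0.71 ± 0.15 (SE; 95% interval -1.03 to -0.39), with an adjusted p of 0.731 by edgeR. The remaining genes of this direction chosen by the same rule were nefla, arxa, flot2a, gnaq, rabl6b, hey2 and a gene that the files give only a project identifier, with log2 fold changes from -0.75 for nefla to -0.40 for flot2a. Among them arxa is a homeobox gene of the forebrain, hey2 is a Notch target that in zebrafish shapes the aorta, gnaq encodes a G protein alpha subunit and flot2a a membrane scaffold protein. The arxa values were 3.72, 5.54 and 4.61 CPM in PrP and 7.66, 8.93 and 6.31 CPM in EtP, and the hey2 values were 3.801, 5.16 and 5.43 and 8.61, 7.39 and 6.09 CPM. In all 10 genes the PrP libraries lay below every EtP library, a pattern that 3.31% of all tested genes had and that selection by p favours.

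The genes higher in PrP with the smallest unadjusted p were ybey, psmg3, dyrk3, rfc4, lamtor3, tkta, snrpb2, CR383676.2, znf423 and uprt. The ybey gene, whose product is a mitochondrial endoribonuclease in human cells, had 8.45, 9.66 and 8.25 CPM in PrP and 4.47, 5.02 and 5.88 CPM in EtP. Its log2 fold change was 0.77 ± 0.19 (SE; 95% interval 0.38 to 1.16), and the symbol joins 2 gene IDs of the deposited table. For psmg3, a proteasome assembly chaperone in mammals, the values were 21.8, 21.3 and 20.4 CPM in PrP and 15.4, 17.5 and 15.7 CPM in EtP, a log2 fold change of 0.38 ± 0.11. The libraries of each group lay close together, and the groups did not overlap. The replication clamp loader gene rfc4 had 14.9, 12.6 and 14.2 CPM in PrP and 11.1, 7.62 and 10.3 CPM in EtP, and the transketolase gene tkta of the pentose phosphate pathway had 243, 192 and 213 and 167, 175 and 147 CPM. Their log2 fold changes were 0.52 ± 0.16 and 0.40 ± 0.12. The groups overlapped for CR383676.2, at 5658, 2185 and 4684 CPM in PrP and 2685, 2234 and 1957 CPM in EtP, and for znf423, and not for the other 8 genes. The smallest log2 fold change of the 10 was 0.33, for dyrk3, a kinase that in human cells dissolves stress granules.

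**Figure D1:**
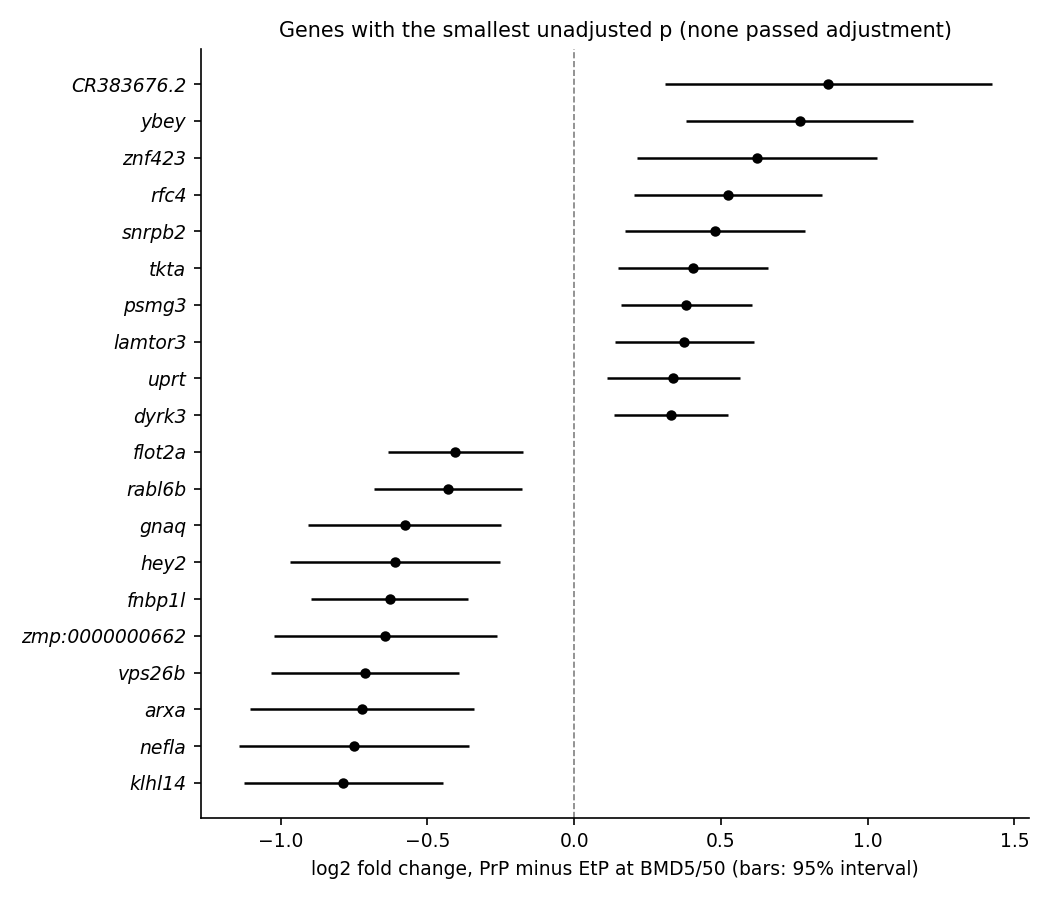
Log2 fold change of PrP minus EtP at BMD5/50 (x axis) for the 10 higher and 10 lower genes of at least 5 CPM with the smallest unadjusted p, with points for the edgeR estimates and bars for 95% intervals. No interval crosses 0, which the choice of genes by p fixes, and no gene passed the adjusted test.

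Genes with the largest smallest difference over the 3 replicate numbers were named as well, and this choice fixes their direction. The lower ones were cfhl4, crp2, grifin, klhl14, nefla, prelid3a, si:ch1073-464p5.5 and si:dkey-219e21.2. The crp2 values, of a C-reactive protein gene, were 0.253, 9.76 and 10.7 CPM in PrP and 0.775, 14.1 and 27.15 CPM in EtP, and those of grifin, a lens galectin gene, were 8.700, 21.9 and 12.99 and 15.5, 36.4 and 37.97 CPM. In crp2 the libraries differed far more between numbers than between compounds. The higher ones were FP017274.1, TMEM216, dnal4b, elf3, fbxo42, lin52, rfc4 and ybey. The elf3 values, of an epithelial ETS factor gene, were 9.46, 28.1 and 23.7 CPM in PrP and 6.46, 20.3 and 16.6 CPM in EtP, which overlapped.

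Pan-neuronal genes showed no common direction, while 3 neurofilament genes lay lower in PrP without passing the test. Of 41 tested genes of neurons and synaptic vesicles, 22 had a log2 fold change above 0 and 19 below it, with a median of 0.027 beside -0.0063 over all tested genes, and 0 passed. Of all tested genes 49.0% lay above 0 and 51.0% below it. The neurofilament light chain gene nefla, which builds the axonal cytoskeleton, had 7.43, 8.54 and 7.49 CPM in PrP, 10.9, 12.9 and 15.5 CPM in EtP and 10.2, 7.85 and 8.16 CPM in Control. EtP lay above the other groups, and the PrP libraries lay near Control. Its log2 fold change of PrP minus EtP was -0.75 ± 0.19 (SE; 95% interval -1.14 to -0.36).

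The medium chain gene nefma had 14.4, 26.9 and 15.1 CPM in PrP and 24.7, 32.3 and 46.6 CPM in EtP, and its paralog nefmb had 21.7, 34.1 and 24.5 and 29.00, 41.9 and 43.6 CPM. Both were lower in PrP within each replicate number, though the groups overlapped, replicate 2 of PrP being the highest of its group. Their log2 fold changes were -0.89 ± 0.26 (SE; 95% interval -1.41 to -0.36) and -0.51 ± 0.21 (SE; 95% interval -0.95 to -0.079). The other neurofilament and related filament genes on the list, neflb and inab, had log2 fold changes of -0.33 ± 0.21 and -0.052 ± 0.19, both with an interval across 0. The syntaxin-binding gene stxbp1b, which serves vesicle fusion, lay on the other side at 89.1, 75.9 and 73.2 CPM in PrP and 73.8, 59.9 and 48.1 CPM in EtP, a log2 fold change of 0.39 ± 0.17. The general neuronal genes elavl3 and elavl4, which encode RNA-binding proteins, had log2 fold changes of -0.29 ± 0.21 and -0.0069 ± 0.16. The number of list members below 0 ran from 9 without EtP replicate 1 to 36 without PrP replicate 1.

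**Figure D2:**
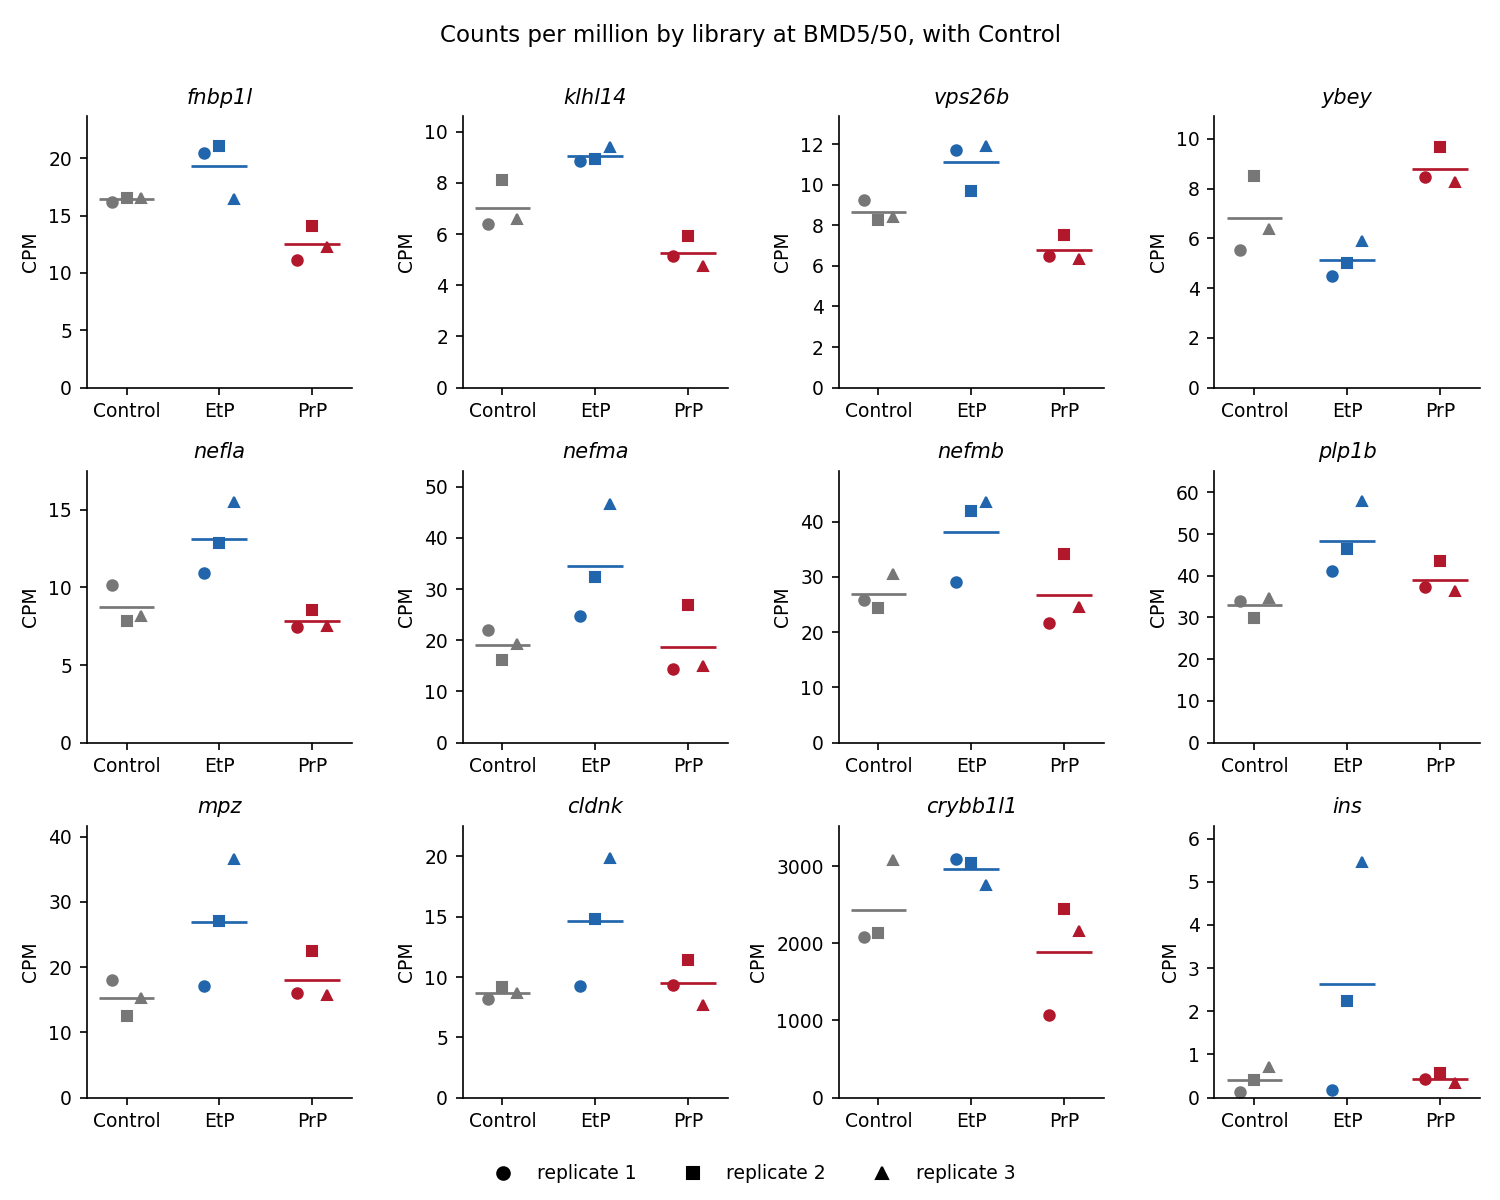
TMM-scaled CPM (y axis, from 0) of 12 genes in the 3 libraries each of Control, EtP BMD5/50 and PrP BMD5/50, with symbols for the replicate number and lines for group means. The PrP and EtP libraries do not overlap for fnbp1l, klhl14, vps26b, ybey, nefla and crybb1l1, and replicate 3 of EtP is the highest library for nefma, plp1b, mpz, cldnk and ins.

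Genes of axon guidance and neural adhesion lay lower in PrP more often than higher, with 0 passing. Of 41 tested members 26 had a log2 fold change below 0, the median was -0.17, and for 6 members every PrP library lay below every EtP library, beside 3.31% of all genes. The 6 were cntn2, cntn1a, ncam1a, l1camb, epha4b and plxna3, which encode adhesion proteins of axons, an ephrin receptor and a semaphorin coreceptor. The contactin gene cntn2 had 0.338, 0.657 and 0.206 CPM in PrP and 1.38, 1.12 and 0.852 CPM in EtP, a log2 fold change of -1.49 ± 0.43 (SE; 95% interval -2.38 to -0.60) from low counts. The neural adhesion gene ncam1a had 6.76, 10.2 and 7.22 CPM in PrP and 14.6, 10.4 and 12.2 CPM in EtP, a log2 fold change of -0.62 ± 0.30 (SE; 95% interval -1.25 to 0.0021). The list medians by replicate number were -0.21, 0.032 and -0.19, so number 2 did not share the direction. Leaving out 1 library at a time moved the list median from -0.17 without EtP replicate 2 to -0.035 without EtP replicate 1.

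The lists of transmitter and glial genes had medians near 0. For 41 tested genes of transmitter synthesis, transport and receptors, 22 lay above and 19 below 0 with a median of 0.040, and 0 passed. Acetylcholinesterase, encoded by ache and often used as a marker of neurotoxic exposure, had 162, 201 and 169.8 CPM in PrP and 148, 207 and 199 CPM in EtP. The ranges overlapped nearly in full, with a log2 fold change of -0.056 ± 0.13 (SE; 95% interval -0.32 to 0.21). The transmitter median ran from -0.035 without PrP replicate 1 to 0.18 without EtP replicate 1. For radial glia and astroglia, 12 of 23 tested members lay above 0 with a median of 0.014 and 0 passed. The glial filament gene gfap had 95.7, 164 and 97.7 CPM in PrP and 110.5, 181 and 157 CPM in EtP, a log2 fold change of -0.33 ± 0.31 (SE; 95% interval -0.96 to 0.31). The glial median ran from -0.030 without PrP replicate 1 to 0.16 without PrP replicate 2.

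Myelin genes lay lower in PrP than in EtP most clearly within replicate number 3, and 0 of 22 tested members passed. Of these members 16 had a log2 fold change below 0, with a median of -0.23 and medians by replicate number of -0.13, -0.0096 and -0.44. The proteolipid gene plp1b had 37.3, 43.5 and 36.2 CPM in PrP, 41.1, 46.3 and 57.8 CPM in EtP and 34.02, 29.99 and 34.7 CPM in Control. EtP replicate 3 was the highest library, and the log2 fold change was -0.31 ± 0.12 (SE; 95% interval -0.57 to -0.059). The myelin protein zero gene mpz had 16.1, 22.5 and 15.7 CPM in PrP and 17.04, 27.07 and 36.6 CPM in EtP, a log2 fold change of -0.58 ± 0.24 (SE; 95% interval -1.08 to -0.084). In replicate 1 the 2 compounds differed little for mpz, and the gap was widest in replicate 3.

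The claudin gene cldnk of myelin sheaths had 9.38, 11.4 and 7.699 CPM in PrP and 9.29, 14.8 and 19.9 CPM in EtP, and the adhesion gene mag had 0.591, 1.78 and 0.5500 and 1.72, 1.95 and 2.05 CPM. Their log2 fold changes were -0.64 ± 0.29 and -1.0 ± 0.46. In the fit without a block these 4 genes were the members with an unadjusted p under 0.05, all lower, beside 1.91% of all genes. In that fit myelin basic protein, encoded by mbpa and mbpb, had log2 fold changes of -0.43 ± 0.31 and -0.12 ± 0.19, and the other proteolipid gene plp1a had 0.16 ± 0.16, all with intervals across 0. With the replicate number as a block, mbpa had a log2 fold change of -0.38 and an unadjusted p of 0.031 by edgeR. With that block 1522 of all 18543 tested genes had an unadjusted p under 0.05. The lineage genes olig2 and sox10 had 0.21 ± 0.21 and -0.26 ± 0.25. The median of the list ran from -0.42 without PrP replicate 2 to -0.072 without EtP replicate 3. Replicate 3 was also the number in which liver and pancreas genes differed most between the compounds, and the part of that difference in the myelin values was not tested.

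In the eye, lens crystallin genes lay lower and phototransduction genes higher in PrP, and both patterns were widest within replicate number 1. Of 52 tested lens genes 50 had a log2 fold change below 0, with a median of -0.33, and 0 passed. By replicate number the lens medians were -0.97, -0.14 and 0.13. The mean log2 CPM of the list was 6.66, 7.51 and 7.58 in PrP replicates 1 to 3 and 7.74, 7.67 and 7.64 in EtP. PrP replicate 1 was the lowest of the 6 libraries, and without it the median was -0.094 and 35 of 52 members lay below 0. The beta-crystallin gene crybb1l1 had 1065, 2441 and 2165 CPM in PrP and 3097, 3045 and 2760 CPM in EtP, and cryba2b had 380.0, 991 and 805 and 1134, 1091 and 1068 CPM. Neither gene overlapped between groups, with log2 fold changes of -0.65 ± 0.27 and -0.60 ± 0.27. The heat shock factor gene hsf4, which in mammals drives crystallin genes, had 0, 1.59 and 1.93 CPM in PrP and 3.27, 2.84 and 3.07 CPM in EtP, a log2 fold change of -1.36 ± 0.66 (SE; 95% interval -2.72 to 0.0025).

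Among 65 tested genes of phototransduction and the visual cycle, 53 had a log2 fold change above 0 with a median of 0.24, and 0 passed. The medians by replicate number were 0.45, 0.012 and 0.16. Without PrP replicate 1 the median was -0.073 and 39 members lay below 0 in place of 12. The rod opsin gene rho had 7083, 4666 and 4203 CPM in PrP and 4974, 3964 and 3760 CPM in EtP, where replicate 1 was the highest library of both compounds. Its log2 fold change was 0.33 ± 0.22 (SE; 95% interval -0.13 to 0.79). The rod transducin gene gngt1 had 423, 176 and 285 CPM in PrP and 279.9, 163 and 144 CPM in EtP, a log2 fold change of 0.59 ± 0.30 (SE; 95% interval -0.027 to 1.22). With the replicate number as a block, gngt1 had a log2 fold change of 0.60 and an unadjusted p of 0.0053 by edgeR. With that block 1522 of all 18543 tested genes had an unadjusted p under 0.05. PrP replicate 1 also held the largest share of mitochondrially encoded counts and the lowest place on the first principal component of the 6 libraries compared, and their part in the eye values was not tested.

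**Figure D3:**
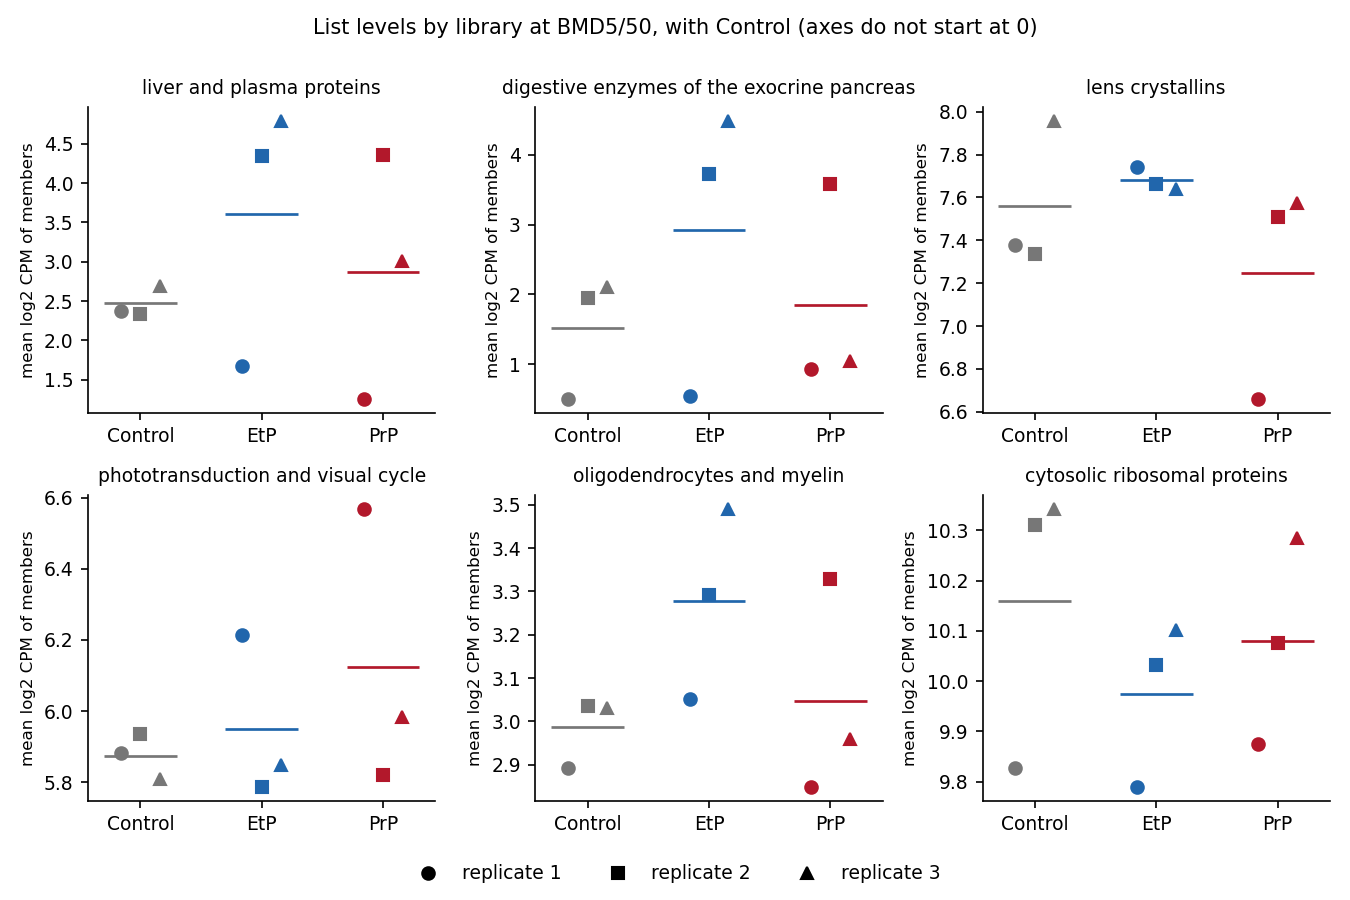
Mean log2 CPM of the tested members of 6 gene lists (y axis, not starting at 0) in each library of Control, EtP BMD5/50 and PrP BMD5/50, with symbols for the replicate number and lines for group means. PrP replicate 3 lies at 3.01 for liver genes and EtP replicate 3 at 4.79, and PrP replicate 1 stands apart for lens and phototransduction genes.

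Liver and pancreas genes gave the widest median differences between the compounds of the 25 lists, and the gap was widest within replicate number 3. Of 69 tested genes of liver and plasma proteins, 67 had a log2 fold change below 0 with a median of -0.75, and 0 passed. The medians by replicate number were -0.37, 0.0098 and -1.90, and the mean log2 CPM of the list was 1.25, 4.36 and 3.01 in PrP and 1.67, 4.35 and 4.79 in EtP. Replicate 2 of both compounds lay at the same level, replicate 1 of both lay low, and replicate 3 was high in EtP and lower in PrP. The liver fatty acid binding protein gene fabp10a had 18.4, 291 and 146 CPM in PrP and 34.9, 338 and 383 CPM in EtP, a log2 fold change of -0.73 ± 1.05 (SE; 95% interval -2.89 to 1.43). The transferrin gene tfa had 18.6, 262 and 79.4 CPM in PrP and 23.7, 267 and 516 CPM in EtP, a log2 fold change of -1.17 ± 1.17 (SE; 95% interval -3.58 to 1.24). The apolipoprotein gene apoa4a was the only liver member with an unadjusted p under 0.05 in the fit without a block. It had 0.0845, 0.563 and 0.344 CPM in PrP and 0.172, 0.887 and 2.13 CPM in EtP, a log2 fold change of -1.75 ± 0.83 (SE; 95% interval -3.46 to -0.045). With the replicate number as a block, f5 and pah also had an unadjusted p under 0.05 by edgeR, both lower in PrP. Of all 18543 tested genes, 1522 had one with the block. Leaving out 1 library at a time gave list medians from -1.91 without PrP replicate 2 to -0.23 without EtP replicate 3.

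For digestive enzymes of the exocrine pancreas, 24 of 29 tested genes lay below 0 with a median of -1.62, and 0 passed. Their medians by replicate number were 0.33, -0.17 and -4.18, so numbers 1 and 3 had opposite directions. The trypsinogen gene prss1 had 28.7, 291 and 31.4 CPM in PrP and 18.6, 326 and 652 CPM in EtP, a log2 fold change of -1.51 ± 1.37 (SE; 95% interval -4.33 to 1.31). The carboxypeptidase gene cpa5 had 5.91, 43.3 and 3.71 CPM in PrP and 1.98, 53.1 and 155 CPM in EtP, a log2 fold change of -2.01 ± 1.39 (SE; 95% interval -4.88 to 0.86). In both genes PrP replicate 3 was near replicate 1, while EtP replicate 3 was the highest library. In the fit without a block the only member of the list with an unadjusted p under 0.05, cuzd1.1, lay on the other side. It was higher in PrP within each replicate number. It had 1.94, 4.22 and 3.71 CPM in PrP and 0.258, 2.01 and 1.62 CPM in EtP, a log2 fold change of 1.29 ± 0.58 (SE; 95% interval 0.090 to 2.49), and the ranges overlapped by 1 library. With the replicate number as a block, cel.1, pdia2 and cela1.4 also had an unadjusted p under 0.05 by edgeR, all lower in PrP. None of them passed the adjusted test. With that block 1522 of all 18543 tested genes had an unadjusted p under 0.05. The list median ran from -3.51 without PrP replicate 2 to -0.63 without EtP replicate 3. The insulin gene ins, expressed by beta cells, had 0.422, 0.563 and 0.344 CPM in PrP, 0.172, 2.25 and 5.46 CPM in EtP and 0.1403, 0.413 and 0.706 CPM in Control. Its 3 PrP libraries lay within the range of EtP, and its log2 fold change was -2.61 ± 0.85 (SE; 95% interval -4.37 to -0.85) with an adjusted p of 1 by edgeR. The glucagon gene gcga had a log2 fold change of -0.67 ± 0.67.

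Genes of intestine, heart and red cells also had their widest gap within replicate number 3, while number 1 differed in direction between these lists. Of 42 tested intestinal genes 35 lay below 0 with a median of -0.64 and medians by number of -0.33, 0.14 and -1.72. The peptide transporter gene slc15a1b had 1.27, 5.44 and 1.24 CPM in PrP and 2.07, 6.62 and 15.7 CPM in EtP, a log2 fold change of -1.67 ± 0.79 (SE; 95% interval -3.30 to -0.031). Of 16 tested heart genes 13 lay below 0 with a median of -0.58 and medians by number of -0.063, 0.13 and -1.24. The cardiac myosin light chain gene myl7 had 0.845, 13.4 and 1.38 CPM in PrP and 0.689, 11.2 and 16.1 CPM in EtP, again low in replicate 1 of both and in PrP replicate 3. The Control libraries, at 0.70, 0.99 and 1.49 CPM, lay near these low ones. Of 21 tested genes of embryonic globins and red cells 17 lay below 0 with a median of -0.49 and medians by number of 0.44, 0.10 and -1.08. No member of the 3 lists passed. Without EtP replicate 3 the medians were -0.0090 for intestine, -0.088 for heart and 0.12 for red cells, the last with 7 members below 0.

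Genes of ester hydrolysis and drug metabolism lay lower in PrP with the same dependence on replicate 3. The list holds enzymes that cleave esters and couple the products, the route by which parabens are cleared, and others such as cyp1a and gclc. Of 64 tested genes of ester hydrolysis and drug metabolism 58 had a log2 fold change below 0 with a median of -0.44, and 0 passed. The medians by replicate number were -0.21, -0.012 and -1.02. The carboxylesterase gene ces2a had 6.08, 93.1 and 25.9 CPM in PrP and 12.5, 108 and 87.5 CPM in EtP, a log2 fold change of -0.75 ± 0.98 (SE; 95% interval -2.77 to 1.28). The sulfotransferase gene sult1st1 had 3.38, 9.19 and 6.94 CPM in PrP and 5.68, 11.3 and 11.2 CPM in EtP, and the glucuronosyltransferase gene ugt1a1 had 6.42, 28.1 and 12.5 and 6.37, 17.2 and 32.5 CPM. Their log2 fold changes were -0.55 ± 0.46 and -0.27 ± 0.68.

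The aryl hydrocarbon receptor target cyp1a had 2.53, 6.38 and 3.99 CPM in PrP and 2.58, 8.22 and 14.6 CPM in EtP, a log2 fold change of -1.0 ± 0.60 (SE; 95% interval -2.23 to 0.23). With the replicate number as a block, cyp1a had a log2 fold change of -0.87 and an unadjusted p of 0.016 by edgeR. With that block 1522 of all 18543 tested genes had an unadjusted p under 0.05. The cyp3a65 gene, a cytochrome P450 of liver and gut, had 29.8, 164 and 72.5 CPM in PrP and 49.4, 192 and 267 CPM in EtP, a log2 fold change of -0.93 ± 0.86 (SE; 95% interval -2.72 to 0.85). Both followed nearly the order of the liver genes over the libraries. An exception was gclc, the catalytic subunit of glutathione synthesis, at 28.6, 29.7 and 27.7 CPM in PrP and 31.6, 31.9 and 41.98 CPM in EtP without overlap, a log2 fold change of -0.30 ± 0.12 (SE; 95% interval -0.54 to -0.047). The list median ran from -0.95 without PrP replicate 2 to -0.083 without EtP replicate 3. Liver markers moved with these values over the libraries, and their part in them was not tested.

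**Figure D4:**
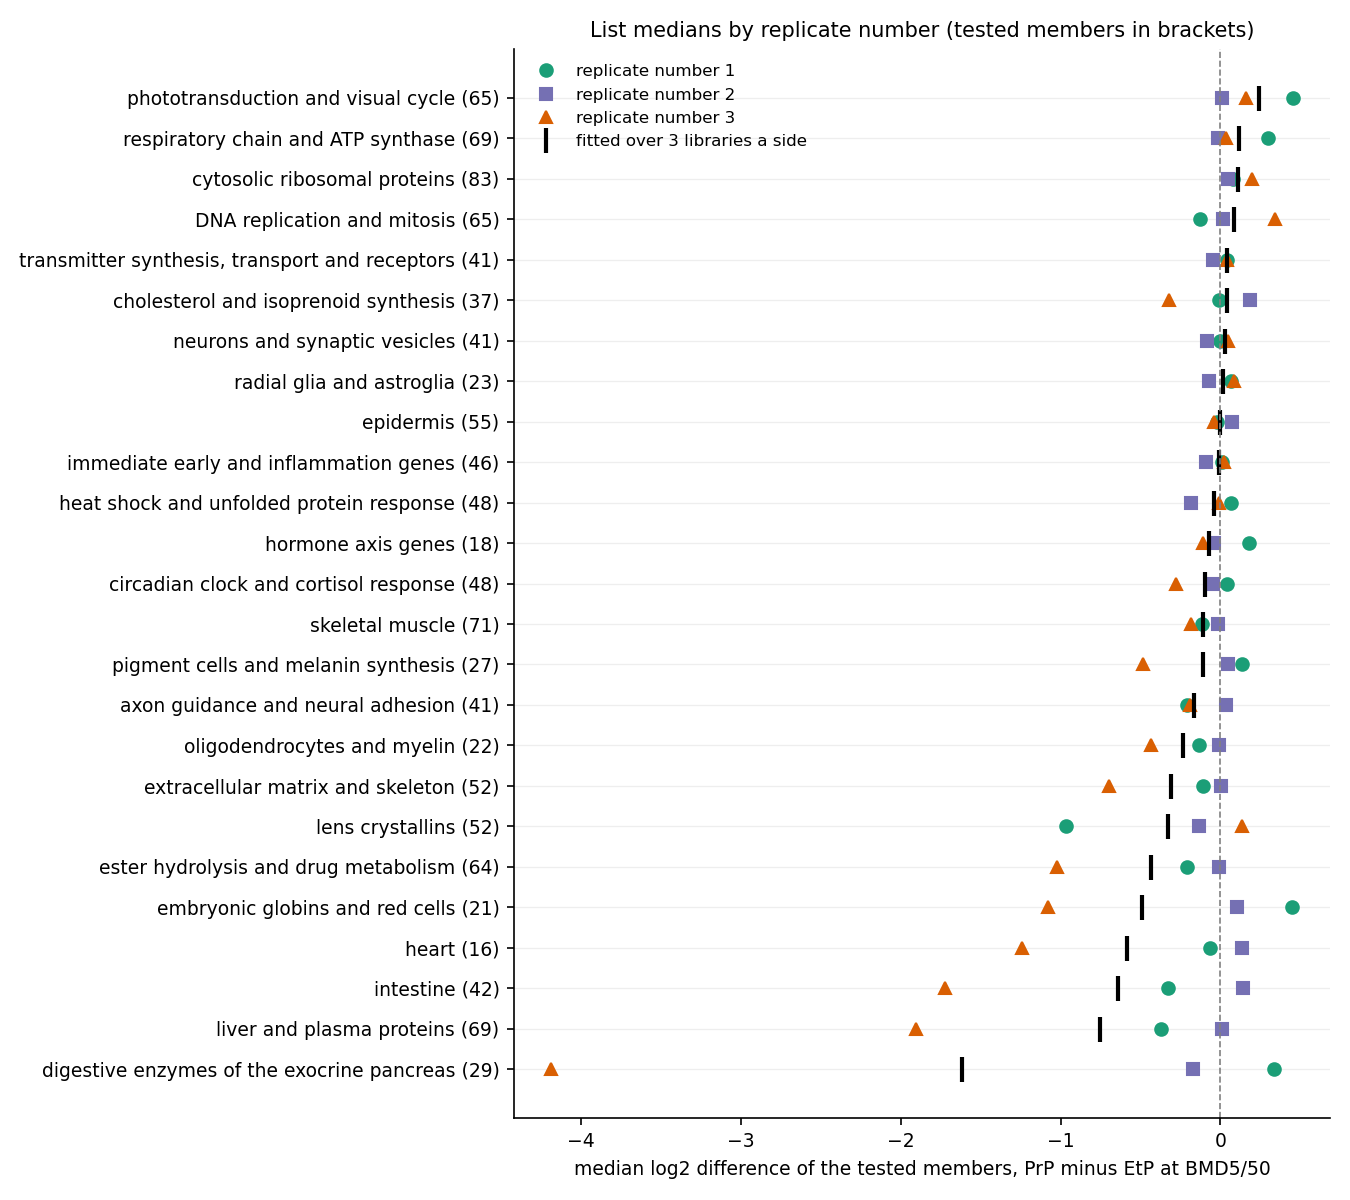
Median log2 difference of PrP minus EtP (x axis) of the tested members of 25 gene lists within each replicate number, with black ticks for the median of the fitted log2 fold changes over 3 libraries a side. Number 3 reaches -4.18 for digestive enzymes where number 1 lies at 0.33, and number 1 reaches -0.97 for lens crystallins where number 3 lies at 0.13.

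Genes of basic cell functions lay slightly higher in PrP. Of 83 tested cytosolic ribosomal protein genes 78 had a log2 fold change above 0 with a median of 0.11, medians by number of 0.077, 0.045 and 0.20, and 0 passed. The mean log2 CPM of these genes was 9.88, 10.08 and 10.29 in PrP and 9.79, 10.03 and 10.10 in EtP, and without PrP replicate 3 the median was -0.0026 with 44 members below 0. The acidic ribosomal protein gene rplp2 had 807, 522 and 789 CPM in PrP and 603, 536 and 556 CPM in EtP, a log2 fold change of 0.32 ± 0.15 (SE; 95% interval 0.017 to 0.63). Of 69 tested genes of the respiratory chain and ATP synthase 50 lay above 0 with a median of 0.12 and medians by number of 0.30, -0.014 and 0.035, and 0 passed. For 9 of them every PrP library lay above every EtP library, beside 2.07% of all genes.

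The 9 genes were mt-nd2, uqcrh, cox7b, cox8a, atp5mc1, atp5mc3a, atp5mea, atp5mf and atp5if1a, which encode subunits of complexes I, III and IV, subunits of ATP synthase and its inhibitor. The ATP synthase gene atp5mf had 65.9, 67.4 and 75.6 CPM in PrP and 58.4, 58.7 and 55.7 CPM in EtP, a log2 fold change of 0.27 ± 0.13 (SE; 95% interval -0.0022 to 0.55), and atp5mea had 0.37 ± 0.15 (SE; 95% interval 0.055 to 0.68). The mitochondrially encoded mt-nd2 had 3736, 2415 and 2290 CPM in PrP and 2247, 2190 and 2271 CPM in EtP, where PrP replicate 1 stood far above the other libraries. Its log2 fold change was 0.33 ± 0.16 (SE; 95% interval -0.00089 to 0.66). Of 65 tested genes of DNA replication and mitosis 46 lay above 0 with a median of 0.086 and medians by number of -0.13, 0.018 and 0.34, and 0 passed. The replication initiation gene gins3 had 3.801, 3.096 and 4.67 CPM in PrP and 2.84, 2.84 and 2.17 CPM in EtP, a log2 fold change of 0.57 ± 0.21 (SE; 95% interval 0.14 to 1.01), while the thymidine kinase gene tk1 had -0.42 ± 0.21. The number of respiratory genes below 0 ran from 6 without EtP replicate 2 to 29 without EtP replicate 1, and that of replication genes from 11 without PrP replicate 1 to 29 without PrP replicate 3.

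The body wall lists depended on single libraries. Of 71 tested skeletal muscle genes 50 lay below 0 with a median of -0.11, and the number below 0 ran from 13 without PrP replicate 1 to 68 without PrP replicate 3. The fast muscle myosin light chain gene mylpfa had a log2 fold change of -0.010 ± 0.40 (SE; 95% interval -0.84 to 0.82). Of 55 tested epidermal genes 28 lay below 0 with a median of -0.0036, a number that ran from 6 without PrP replicate 1 to 50 without EtP replicate 1. The transglutaminase gene tgm1l4 had 7.09, 2.44 and 5.64 CPM in PrP and 2.15, 2.54 and 2.69 CPM in EtP, a log2 fold change of 1.03 ± 0.31 (SE; 95% interval 0.39 to 1.68). Of 52 tested genes of the extracellular matrix and skeleton 45 lay below 0 with a median of -0.31 and medians by number of -0.11, 0.0030 and -0.69, and this number ran from 29 without PrP replicate 1 to 50 without PrP replicate 3. Of 27 tested pigment cell genes 22 lay below 0 with a median of -0.11, which ran from -0.27 without PrP replicate 2 to 0.020 without EtP replicate 3. No member of these 4 lists passed.

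Stress, clock and lipid genes gave no call either. Of 48 tested genes of the heat shock and unfolded protein responses 30 lay below 0 with a median of -0.042, which ran from -0.16 with 36 below 0 without EtP replicate 1 to 0.13 with 16 below 0 without EtP replicate 2. The inducible chaperone gene hsp70.3 had 16.4, 13.4 and 21.2 CPM in PrP and 12.5, 64.4 and 32.05 CPM in EtP, with EtP replicate 2 the highest, and its log2 fold change was -1.09 ± 0.69 (SE; 95% interval -2.53 to 0.34). Of 46 tested immediate early and inflammation genes 24 lay below 0 with a median of -0.0080, which ran from -0.10 with 32 below 0 without PrP replicate 3 to 0.088 with 16 without EtP replicate 3. The cytokine gene il1b had a log2 fold change of 0.62 ± 0.50 (SE; 95% interval -0.42 to 1.66). Of 48 tested genes of the circadian clock and cortisol response 29 lay below 0 with a median of -0.095, which ran from -0.19 without PrP replicate 1 to -0.023 without PrP replicate 2. The light-responsive clock gene per1b had 82.3, 32.9 and 84.7 CPM in PrP and 62.05, 50.2 and 91.5 CPM in EtP, with replicate 2 of both compounds the lowest and a log2 fold change of -0.026 ± 0.49 (SE; 95% interval -1.04 to 0.98). Of 37 tested genes of cholesterol and isoprenoid synthesis 22 lay above 0 with a median of 0.040, which ran from -0.030 without PrP replicate 2 to 0.11 without PrP replicate 3. The desaturase gene scd had 0.338, 0.281 and 0.412 CPM in PrP and 0.689, 0.768 and 0.938 CPM in EtP, a log2 fold change of -1.19 ± 0.59 (SE; 95% interval -2.42 to 0.029).

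Hormone genes bear on the estrogenic and thyroid readouts for which parabens are studied, and most had few reads. Of 47 listed hormone axis genes 43 were in the table and 18 had enough reads, of which 10 lay below 0 with a median of -0.070, and 0 passed. Leaving out 1 library at a time gave medians from -0.34 without PrP replicate 3 to -0.11 without EtP replicate 3, and without PrP replicate 1 or 3 the rerun filter kept 20 members. Thyroid hormone receptor genes thraa and thrb had log2 fold changes of 0.49 ± 0.27 (SE; 95% interval -0.065 to 1.05) and 0.46 ± 0.26 (SE; 95% interval -0.074 to 0.99). The thraa values were 8.700, 5.07 and 6.39 CPM in PrP and 3.79, 4.96 and 5.497 CPM in EtP. The vitellogenin gene vtg1, which estrogen induces in liver, had 19 reads over all 30 libraries and 5 in the 6 compared. Brain aromatase, encoded by cyp19a1b, had 101 and 22 reads, and the thyrotropin gene tshba had 82 and 20. These 3 genes were not tested, and a small difference or a fall in them was not detectable at this depth.

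Each compound was also set beside Control, with which both comparisons share the same 3 libraries. At BMD5/50 edgeR called 0 genes for PrP against Control, where 291 (1.57%) had an unadjusted p under 0.05. It called 0 for EtP against Control, where 527 (2.84%) had one. Liver genes had a median log2 fold change of 1.01 in PrP and 1.83 in EtP, and digestive enzymes 0.86 and 2.58. Not all libraries shared these differences. By mean log2 CPM, liver genes in replicate 1 lay at 1.25 in PrP and 1.67 in EtP, below every Control library. Replicates 2 and 3 of both compounds lay above the Control range of 2.34 to 2.69. Digestive enzymes lay within the Control range in PrP replicates 1 and 3 (0.925 and 1.04) and EtP replicate 1 (0.549). In the remaining libraries of both compounds they lay above it. For lens crystallins the median log2 fold changes against Control were -0.36 in PrP and 0.015 in EtP, and for phototransduction 0.34 and 0.051. The PrP values rested largely on replicate 1. Its mean log2 CPM for lens genes was 6.66, while PrP replicates 2 and 3 lay within the Control range of 7.34 to 7.96. For phototransduction PrP replicate 1 lay at 6.57 and replicates 2 and 3 at 5.82 and 5.98, beside a Control range of 5.81 to 5.94. EtP replicate 1 also lay above that range, at 6.21. Cytosolic ribosomal protein genes had medians of -0.087 in PrP and -0.20 in EtP, with 79 and 82 of 83 below 0. By mean log2 CPM the PrP libraries, at 9.88, 10.08 and 10.29, lay within the Control range of 9.83 to 10.34. EtP replicates 2 and 3 also lay within it, at 10.03 and 10.10, and EtP replicate 1 lay below it, at 9.79. For nefla the log2 fold changes were -0.16 in PrP and 0.59 in EtP, for nefma -0.031 and 0.86, and for plp1b 0.25 and 0.56. In these 3 genes EtP was the group farther from Control. For klhl14 they were -0.42 and 0.37, and for ybey 0.37 and -0.40, with Control between the compounds.

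The same pair of compounds was compared at the other labels, in libraries that this comparison does not share. At BMD5/10 edgeR called 0 genes between PrP and EtP, where 308 (1.66%) had an unadjusted p under 0.05, and at BMD5 it called 0, where 327 (1.76%) had one. The difference between the compounds did not pass the test of its own change between BMD5/50 and BMD5/10 for any gene, with 182 (0.982%) at an unadjusted p under 0.05, or between BMD5/50 and BMD5, with 451 (2.43%). For liver genes the median log2 fold change of PrP minus EtP was -0.75 at BMD5/50, -1.22 at BMD5/10 and -0.78 at BMD5. For digestive enzymes it was -1.62, -1.66 and -0.066. Lens crystallins lay below 0 at BMD5/50 and above it at the other labels, at 0.17 and 0.25, while phototransduction genes had medians above 0 at all 3, at 0.24, 0.36 and 0.22. Cytosolic ribosomal protein genes, of which 78 of 83 lay above 0 at BMD5/50, had a median of -0.16 with 82 of 83 below 0 at BMD5/10 and of -0.0039 at BMD5. Genes of axon guidance and neural adhesion, with a median of -0.17 at BMD5/50, had medians of 0.046 at BMD5/10 and 0.069 at BMD5. There 24 and 28 of 41 members lay above 0. The epidermal median was -0.39 at BMD5/10 and -0.44 at BMD5. List medians at BMD5/10 and BMD5 were not split by replicate number or recomputed with a library left out. Their dependence on single libraries was not tested.

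Among single genes, fnbp1l had log2 fold changes of PrP minus EtP of -0.63 at BMD5/50, -0.081 at BMD5/10 and 0.079 at BMD5, and klhl14 had -0.79, -0.012 and 0.068. For ybey they were 0.77, -0.057 and 0.063. These 3 genes, picked for a small p at BMD5/50, lay near 0 at the other labels. By contrast tkta, chosen by the same rule, had 0.40, 0.45 and 0.10, and dyrk3 had 0.33, 0.31 and -0.036. Of the 20 genes of smallest p, 19 had the same sign at BMD5/10 and 7 at BMD5, beside 64.7% and 54.9% of all tested genes. The 95% interval at BMD5/10 lay on that side of 0 for 3 of them. The neurofilament gene nefla had -0.75, -0.67 and -0.13, and nefma had -0.89, -0.51 and -0.15. The interval for nefla at BMD5/10 was -1.06 to -0.28, with an adjusted p of 1 by edgeR. The myelin gene mpz had -0.58, -0.53 and -0.26, and cntn2 had -1.49, -0.62 and 0.66.

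**Figure D5:**
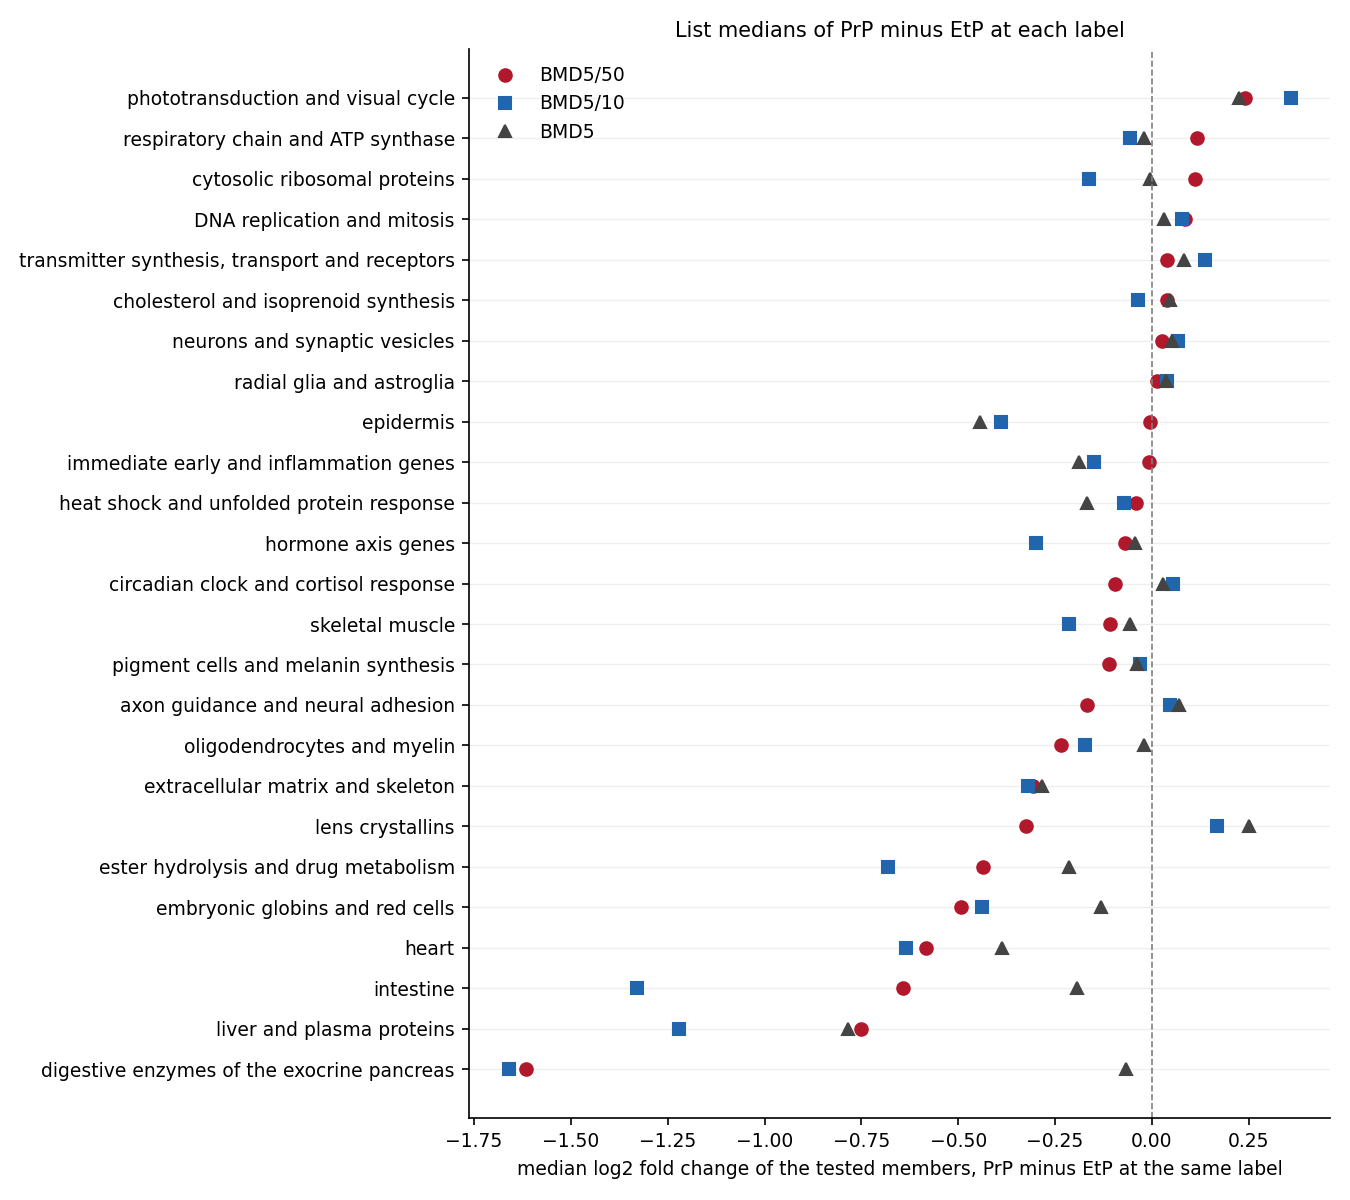
Median log2 fold change of PrP minus EtP (x axis) of the tested members of 25 gene lists at the labels BMD5/50, BMD5/10 and BMD5, each from 3 libraries a side. Liver genes lie below 0 at each label, from -1.22 to -0.75, and lens crystallins lie at -0.33 at BMD5/50 and at 0.17 and 0.25 at the other labels. The medians at BMD5/10 and BMD5 were not split by replicate number.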

How the data were processed

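RNA-seq read counts per transcript were deposited by the authors in 1 table, per the file headers, and were used without scaling by the authors. For the aligner, counter and genome build no name is given in the sources used here, and no coordinates are printed. The 60 columns of other per-library values were not used. Counts of 59876 transcripts (32520 gene IDs, of which 29201 matched the gene name reference) were summed to 31846 symbols. This joined several gene IDs for 533 symbols, and near-identical paralogs may share reads. Columns were matched to libraries by title, the columns named PP being propylparaben. No pair of libraries held identical counts (0 pairs).

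The test was edgeR 4.0.16's quasi-likelihood F test under R 4.3.3 (limma 3.58.1), with TMM scaling and filterByExpr at a minimum count of 10, with all 30 libraries and 10 group means, and Benjamini-Hochberg adjustment over 18543 genes at 0.05 in each of 7 comparisons. The fit was tested on simulated data. Standard errors come from the F statistic. CPM are TMM-scaled, and log2 CPM use a prior count of 2. Alternatives were DESeq2 1.42.0, RLE scaling, no filter, only the libraries compared, the replicate number as a block, numbers 2 and 3 alone, single transcripts and each replicate left out. Counts of list members under each library left out were added after seeing the data. Members tested then differed slightly, as the filter was rerun. With 3 libraries a side an exact permutation test has a smallest p of 0.1, and none was used.

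Named genes are the 10 per direction with the smallest unadjusted p at 5 CPM or more, the 8 per direction with 1 sign in all replicate numbers and the largest smallest difference, up to 4 per list by p, and 14 sentinels. Other genes were named after their values were seen. The 6 libraries were taken by their labels. The 25 lists, the genes and the choice to report this comparison were made with earlier results of these data known.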

Additional observations from a re-analysis of the deposited data

Results flagged for a closer look

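The clock gene clocka, which encodes a partner in the positive arm of the circadian oscillator, had groups that did not overlap at both BMD5/50 and BMD5, in opposite directions. Opposite directions of this kind were looked for in 137 named genes at both other labels, and only clocka showed them. The share of all tested genes with this pattern was not computed. The gene clocka had been named for a small p at BMD5/50, which favours groups that do not overlap there. At BMD5/50 it had 0.676, 0.563 and 1.237 CPM in PrP and 2.32, 1.241 and 1.79 CPM in EtP, a log2 fold change of -1.07 ± 0.51 (SE; 95% interval -2.12 to -0.013). PrP replicate 3 and EtP replicate 2 nearly met there. At BMD5 it had 1.55, 1.98 and 3.81 CPM in PrP and 0.563, 0.452 and 0.960 CPM in EtP, a log2 fold change of 1.87. In PrP replicate 3 at BMD5, the highest of these libraries, the gene zgc:158463 took 7.93% of the counts. No other library of the series gave a single gene so large a share, and its part in the clocka value was not tested. The difference between the labels was -2.94 on the log2 scale, with a 95% interval of -4.46 to -1.42 and an adjusted p of 1 by edgeR, so it did not pass the test over all genes.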

How the results depend on the processing

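The count of genes called between PrP and EtP at BMD5/50 was 0 in every alternative run. An unadjusted p under 0.05 was reached by 643 of 18543 genes under RLE scaling and 825 of 26679 with no filter. It was reached by 158 of 17050 with only the 6 libraries and 1360 of 18855 with numbers 2 and 3 alone. Leaving out each replicate in turn gave calls of 0 to 0, with 317 genes at an unadjusted p under 0.05 without PrP replicate 1, 2163 without PrP replicate 2, 499 without PrP replicate 3, 1162 without EtP replicate 1, 531 without EtP replicate 2 and 432 without EtP replicate 3. The other comparisons also stayed at 0 calls in the alternatives run, except EtP against Control with numbers 2 and 3 alone, which gave 120 (114 higher and 6 lower), and the cause was not tested. With the replicate number as a block the comparison of PrP with EtP called 0 genes. There 1522 of 18543 had an unadjusted p under 0.05, more than the 927 that a uniform distribution of p would give. Among them were cyp1a, gngt1, hsf4, ncam1a, atp5mf, mt-nd2 and scd, whose intervals in the fit without a block crossed 0. The fit without a block had fewer than 927, at 644. Same-numbered libraries deviated from their group means with correlations of 0.564, 0.320 and 0.067. The numbers were not taken as a pairing of all 3. Number 3 lay under 0.1, and PrP replicate 2 correlated best with EtP replicate 3 (0.451). Number 1 did stand together, at 0.564. Its values of -0.486 to -0.206 with the other numbers add little, since deviations from a mean of 3 libraries sum to 0. For the same reason the correlations among numbers 2 and 3 cannot settle whether these were paired. Of 1634 recomputed log2 fold changes of 137 named genes 13 had the other sign, in 8 genes. Leaving out each replicate gave ranges of -1.43 to 0.12 for abcg8, -0.19 to 0.048 for ache, -1.35 to 0.38 for alas2, -1.71 to 0.31 for alpi.2, -0.031 to 0.49 for fabp7a, -0.17 to 0.23 for mylpfa, -0.24 to 0.31 for per1b and -1.09 to 0.030 for tcap. With numbers 2 and 3 alone mylpfa had 0.15. The smallest adjusted p of any named gene in any alternative was 0.188. The median half-width of 0.52 is that of single unadjusted 95% intervals in the fit without a block, and none was computed with the block. With 3 libraries a side, smaller differences were mostly not detectable at the spread of that fit. Larger ones also missed the adjusted threshold, as klhl14 did with a log2 fold change of -0.79 and an adjusted p of 0.674 by edgeR.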
